A study of Mus musculus with 6 samples.

Results

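A set of 33 genes that mark macrophages and monocytes was followed here in B-cell preparations from Em-Myc mice (Eµ-Myc, a Myc transgene under the immunoglobulin heavy chain enhancer, active in the B lineage). The genes were taken by name, as the probe sets for which the platform annotation gives that symbol and no other. All 33 were measured, each by 1 probe set of its own, among 19938 genes in all. They were described as 23 tissue macrophage genes and 10 genes of monocytes and of myeloid cells at large. Macrophages are tissue-resident phagocytes that clear dying cells and aged red cells, and monocytes are their circulating relatives, which enter tissues and can become macrophages. Growth and survival of macrophages depend on the receptor for colony-stimulating factor 1, and in the spleen, red pulp macrophages break down haem and return its iron to the blood. Both cell types are found beside the B cells of lymphoid organs and of B cell lymphomas.

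The 6 arrays (Affymetrix Mouse Gene 1.0 ST, 1 colour) formed 3 groups of 2, and all came from mice carrying the Em-Myc transgene. The lymphoma groups held primary B-cell lymphomas that carried a hairpin targeting Ezh2 (which encodes a methyltransferase of histone H3), either shEzh2.781 or shEzh2.556. The third group held sorted splenic B cells of premalignant Em-Myc mice from independent preparations. The labels call the premalignant cells both normal control B cells and premalignant Em-Myc cells, and the title was followed. Lymphoma cells had been purified with a CD43 bead kit, which retains CD43-negative cells. Since CD43 is carried by macrophages, monocytes, granulocytes and T cells, such a kit is meant to deplete them. How far each of these cell types was depleted was not measured here. By flow cytometry, 95% or more of the purified lymphoma cells carried B220 and GFP. The labels gave neither ages nor whether both lymphomas of a hairpin arose in different animals, so p-values reflect only the variation among the arrays at hand, some of which may be technical. All members were read from preparations labelled as B cells, and no sample was labelled as macrophages. In such bulk samples, fewer cells of a type and less RNA per cell cannot be told apart.

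Signals are given on the log2 scale, on which a difference of 1 is a 2-fold change, and levels of different probe sets were not set against each other. Differences carry the standard error (SE) of a limma fit to all 19938 genes, and a gene was called at a Benjamini-Hochberg adjusted p under 0.05 over all of them. Ezh2 had 10.92 and 11.07 on the shEzh2.781 arrays and 11.20 and 11.30 on the shEzh2.556 arrays, against 12.64 and 12.70 on the premalignant arrays. No lymphoma without a hairpin was analysed here, so hairpin, malignancy and cell purification cannot be told apart in comparisons with premalignant cells. The 11 B cell markers had a median signal of 11.54 and 11.60 on the shEzh2.781 arrays, 11.43 and 11.41 on the shEzh2.556 arrays, and 11.88 and 12.06 on the premalignant arrays. Of these 11 markers, 1 rose and 5 fell in the average of both hairpin groups against premalignant cells. In that comparison 5.6% of all genes were called higher and 9.61% lower. Array medians over all genes lay between 7.02 and 7.18.

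Sequence upstream of 4 members is shown because these genes differed between the hairpin groups and stand for the roles described here: complement, antibody receptor, scavenger receptor and regulator of red pulp macrophages. The stretches are the 250 bases before the RefSeq gene start in GRCm38.p6, 5′ to 3′ on the gene's strand, of C1qc (chr4:136892915-136893164, minus strand), Fcgr4 (chr1:171018676-171018925, plus strand), Cd68 (chr11:69666171-69666420, minus strand) and Spic (chr10:88683024-88683273, minus strand). Capitals mark a match on either strand to GAGGAAGT, a form of the site of the myeloid factor PU.1, to TGACTCA, the AP-1 site, or to CACGTG, the E-box bound by MYC. None of the marked matches overlap.
C1qc: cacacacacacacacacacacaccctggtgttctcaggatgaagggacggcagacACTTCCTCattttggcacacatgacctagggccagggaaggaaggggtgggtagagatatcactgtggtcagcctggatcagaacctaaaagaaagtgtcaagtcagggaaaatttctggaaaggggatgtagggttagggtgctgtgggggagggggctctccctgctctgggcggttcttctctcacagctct
Fcgr4: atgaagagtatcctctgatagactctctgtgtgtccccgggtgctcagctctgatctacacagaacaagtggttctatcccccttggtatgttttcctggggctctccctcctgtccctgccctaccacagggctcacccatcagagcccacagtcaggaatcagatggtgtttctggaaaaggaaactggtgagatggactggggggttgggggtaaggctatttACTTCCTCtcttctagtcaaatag
Cd68: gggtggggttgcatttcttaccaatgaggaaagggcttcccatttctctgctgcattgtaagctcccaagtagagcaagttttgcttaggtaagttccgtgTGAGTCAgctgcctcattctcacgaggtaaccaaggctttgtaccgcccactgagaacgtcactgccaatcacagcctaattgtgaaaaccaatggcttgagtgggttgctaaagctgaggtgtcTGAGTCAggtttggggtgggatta
Spic: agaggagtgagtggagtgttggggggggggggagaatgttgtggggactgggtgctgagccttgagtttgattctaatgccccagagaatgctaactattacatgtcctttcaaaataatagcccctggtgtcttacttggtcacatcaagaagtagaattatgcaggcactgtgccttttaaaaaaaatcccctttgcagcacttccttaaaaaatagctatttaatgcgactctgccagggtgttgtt
In these windows C1qc held the PU.1 letters from 195 bases before the start and Fcgr4 from 24 bases before it. Cd68 held the AP-1 letters at 149 and at 24 bases before its start, and Spic held none of the 3 motifs. Promoter windows were found for 23 of the 33 members. Of these, 2 held the PU.1 letters (C1qc and Fcgr4), 1 the AP-1 letters (Cd68) and 1 the E-box (Ctsl). The same letters were present in 2.44%, 4.43% and 6.05% of 27025 promoter windows of this length for PU.1, AP-1 and the E-box. A match describes the letters alone.

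The lymphomas of both hairpins were first compared with premalignant cells, as the average of the hairpin groups. A call over both hairpins thus need not hold for each hairpin alone. Of the 33 members, 8 rose and 3 fell, while over all genes 5.6% were called higher and 9.61% lower. The rises were those of Fcgr4, Clec4n, Lgmn, Csf1r, Apoe, C1qb, C1qc and Hmox1, between 0.32 and 1.08 (log2). The falls were those of Itgam, Ctsl and Timd4. Tissue macrophage genes supplied 6 of the rises and 2 of the falls, with a median difference of 0.09 over 23 genes, against 0.03 over all genes. The monocyte and myeloid genes supplied 2 rises and 1 fall, with a median of 0.07 over 10 genes. Over all genes, the split of 1117 higher and 1916 lower became 1591 and 1645 after quantile normalization. It became 1682 and 1530 after centring each array on its median over all probe sets. The members were 8 higher and 2 lower after quantile normalization, and 9 higher and 2 lower after centring. Of the 11 calls, those of Fcgr4, Itgam and Ctsl were kept whichever array was left out, and that of Hmox1 was lost whichever of the 6 was left out. Testing all 35512 probe sets in place of genes left 3 members higher and 1 lower.

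**Figure D1:**
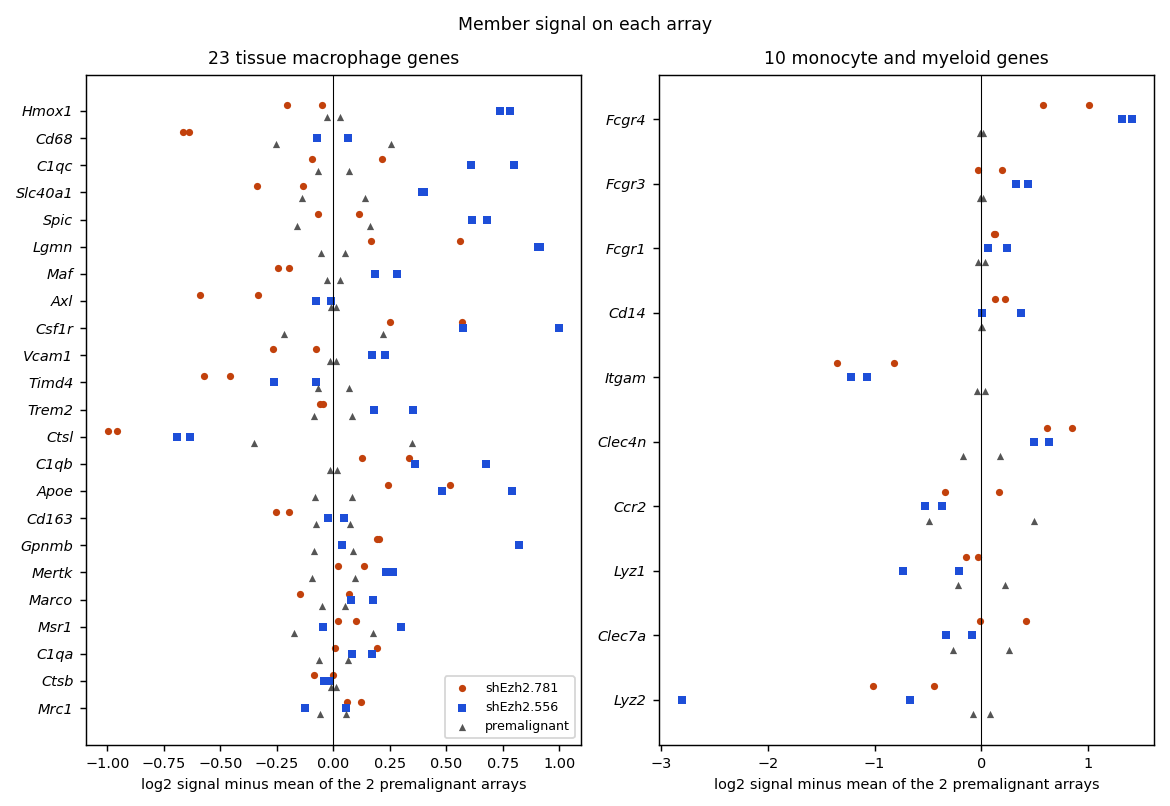
Log2 signal of each member on each of the 6 arrays, minus the mean of the 2 premalignant arrays (horizontal axis), for 23 tissue macrophage genes on the left and 10 monocyte and myeloid genes on the right. Circles are shEzh2.781, squares shEzh2.556 and triangles premalignant arrays, and genes run from the most negative to the most positive difference between hairpin groups; squares lie right of the circles for most genes of the left panel.

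Complement C1q is the recognition protein of the classical complement pathway and is made largely by macrophages. Its 3 chains are encoded by C1qa, C1qb and C1qc, all on chromosome 4. C1qc had 7.37 and 7.68 on the shEzh2.781 arrays and 8.26 and 8.07 on the shEzh2.556 arrays, against 7.53 and 7.39 on the premalignant arrays. Both shEzh2.556 arrays stood above all others, while the shEzh2.781 and premalignant arrays overlapped. C1qc rose by 0.70 with shEzh2.556 (SE 0.13, limma adjusted p = 0.00348) and differed by 0.06 with shEzh2.781 (SE 0.13, adjusted p = 0.864). C1qb had 8.21 and 8.42 on the shEzh2.781 arrays and 8.76 and 8.45 on the shEzh2.556 arrays, against 8.10 and 8.07 on the premalignant arrays. All 4 lymphoma arrays lay above both premalignant arrays, and the rise with shEzh2.556 was 0.52 (SE 0.13, adjusted p = 0.019). That rise was not called without shEzh2.556 array 1 or either premalignant array. C1qa had 7.05 and 7.24 on the shEzh2.781 arrays and 7.21 and 7.12 on the shEzh2.556 arrays, against 7.10 and 6.98 on the premalignant arrays. It passed the test in none of the 4 comparisons, with a difference of 0.13 for shEzh2.556 (95% interval -0.13 to 0.38).

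Csf1r encodes the receptor for colony-stimulating factor 1 and interleukin 34, on which most macrophages depend. It had 7.70 and 8.02 on the shEzh2.781 arrays and 8.45 and 8.02 on the shEzh2.556 arrays, against 7.23 and 7.67 on the premalignant arrays. All lymphoma arrays were above both premalignant ones, the nearest pair by little. The rise with shEzh2.556 was 0.79 (SE 0.18, adjusted p = 0.00996), and the difference with shEzh2.781 was 0.41 (SE 0.18, adjusted p = 0.196). Without shEzh2.556 array 1 or premalignant array 1, Csf1r was not called with shEzh2.556. Csf1, one of its ligands, had 7.89 and 7.97 on the shEzh2.781 arrays and 8.23 and 8.70 on the shEzh2.556 arrays, against 7.51 and 7.49 on the premalignant arrays. Csf1 rose by 0.96 with shEzh2.556 (SE 0.15, adjusted p = 0.000734).

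The 3 members of iron and haem recycling were each called lower with shEzh2.781 than with shEzh2.556, as were 4.53% of all genes. Spic encodes the transcription factor of red pulp macrophages, Hmox1 the haem oxygenase that opens the haem ring, and Slc40a1 ferroportin, the iron exporter. Hmox1 had 7.86 and 7.71 on the shEzh2.781 arrays, 8.69 and 8.65 on the shEzh2.556 arrays and 7.94 and 7.89 on the premalignant arrays. The shEzh2.556 arrays stood above the other 4, and the rise was 0.76 (SE 0.11, adjusted p = 0.000642), against a difference of -0.13 with shEzh2.781 (SE 0.11, adjusted p = 0.597). Spic had 5.87 and 6.05 on the shEzh2.781 arrays, 6.61 and 6.55 on the shEzh2.556 arrays and 6.09 and 5.77 on the premalignant arrays. It likewise rose with shEzh2.556, by 0.65 (SE 0.13, adjusted p = 0.0055), with shEzh2.781 and premalignant arrays overlapping. Slc40a1 had 6.86 and 7.06 on the shEzh2.781 arrays, 7.58 and 7.59 on the shEzh2.556 arrays and 7.33 and 7.05 on the premalignant arrays. Its difference of 0.40 with shEzh2.556 just missed the threshold (SE 0.13, adjusted p = 0.0541). Vcam1, an adhesion molecule of red pulp macrophages that stromal and endothelial cells carry as well, had 7.94 and 8.13 on the shEzh2.781 arrays, 8.43 and 8.37 on the shEzh2.556 arrays and 8.22 and 8.19 on the premalignant arrays, and passed the test in no comparison.

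Of 14 further genes of iron and haem handling, 1 rose and 2 fell in the average of both hairpins. This share was near the 15.2% of all genes called in either direction. Trf, which encodes transferrin, fell by 0.67 (SE 0.11, adjusted p = 0.00164), and Ftl1, which encodes ferritin light chain, fell by 0.48 (SE 0.10, adjusted p = 0.00469). Steap3, a ferrireductase of endosomes, rose by 0.48 (SE 0.09, adjusted p = 0.00421). Between the hairpins none of the 14 was called by the limma test, and 2 had an unadjusted p under 0.05.

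**Figure D2:**
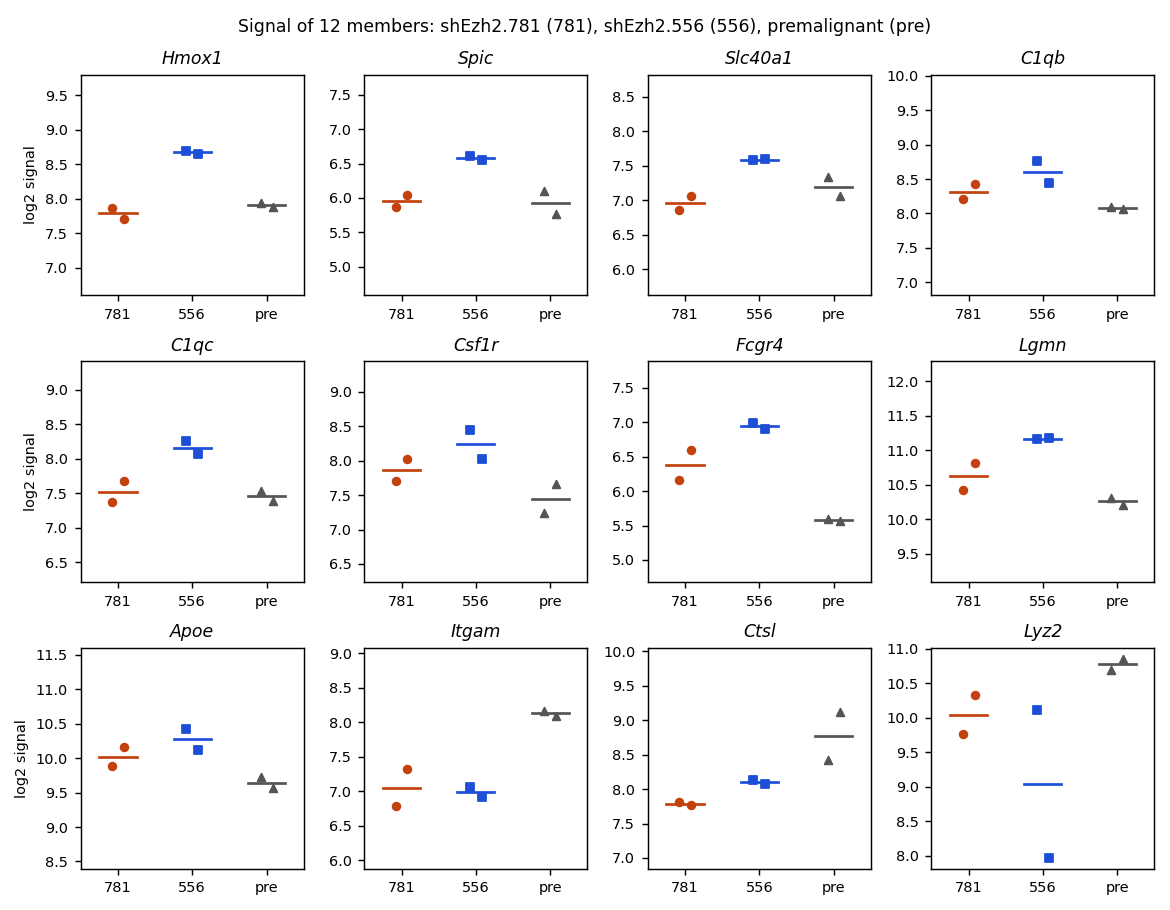
Log2 signal of 12 members on each array, with 2 points per group and a line at the group mean; every panel spans the same range of log2 units. Hmox1, Spic, Slc40a1, C1qc and Lgmn were higher on both shEzh2.556 arrays than on the other 4, Fcgr4 was above premalignant on all lymphoma arrays, and Itgam, Ctsl and Lyz2 were below it.

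Macrophages recognise dying cells through the receptor kinases Axl and Mertk, the phosphatidylserine receptor Timd4 and the lipid receptor Trem2. Axl had 7.63 and 7.89 on the shEzh2.781 arrays and 8.15 and 8.21 on the shEzh2.556 arrays, against 8.21 and 8.24 on the premalignant arrays. It fell by 0.46 with shEzh2.781 (SE 0.12, adjusted p = 0.0288) and differed by -0.05 with shEzh2.556 (SE 0.12, adjusted p = 0.806). The fall was not called after each array was centred on its median, nor without shEzh2.781 array 1 or either premalignant array. Timd4 had 6.11 and 6.22 on the shEzh2.781 arrays and 6.42 and 6.60 on the shEzh2.556 arrays, against 6.75 and 6.61 on the premalignant arrays, and every lymphoma array was below both premalignant ones. Its fall of 0.51 with shEzh2.781 passed (SE 0.12, adjusted p = 0.0164), but not after centring or quantile normalization, nor without shEzh2.781 array 1 or premalignant array 1. Mertk and Trem2 were called in none of the comparisons, with differences of 0.25 and 0.27 for shEzh2.556. Gas6, a ligand of Axl and Mertk, fell by 0.67 with shEzh2.781 (SE 0.13, adjusted p = 0.00493); with shEzh2.556 it differed by -0.30 (adjusted p = 0.124).

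Scavenger receptors take up modified proteins, lipids and microbes. Of the 5 measured, Cd68, the sialomucin of macrophage lysosomes, had 8.51 and 8.54 on the shEzh2.781 arrays, 9.11 and 9.25 on the shEzh2.556 arrays and 8.93 and 9.44 on the premalignant arrays. Both shEzh2.781 arrays lay below all others, and Cd68 fell by 0.65 with shEzh2.781 (SE 0.15, adjusted p = 0.0173); without premalignant array 2 this was not called. The haemoglobin receptor Cd163, the mannose receptor Mrc1, and the scavenger receptors Marco and Msr1 passed in no comparison. For shEzh2.556 their differences were 0.01, -0.03, 0.13 and 0.13, each with a 95% interval that included 0. Maf, a transcription factor of macrophages and T cells, had 6.998 and 6.95 on the shEzh2.781 arrays, 7.48 and 7.38 on the shEzh2.556 arrays and 7.17 and 7.23 on the premalignant arrays, with premalignant cells between the hairpin groups.

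Among genes of lysosomes and lipid handling, which many cell types use, members moved in opposite directions. Lgmn, which encodes the lysosomal protease legumain, had 10.43 and 10.82 on the shEzh2.781 arrays and 11.16 and 11.17 on the shEzh2.556 arrays, against 10.31 and 10.21 on the premalignant arrays. The groups did not overlap, and the rise with shEzh2.556 was 0.91 (SE 0.14, adjusted p = 0.000707). Apoe, the lipid carrier apolipoprotein E, had 9.88 and 10.16 on the shEzh2.781 arrays and 10.43 and 10.12 on the shEzh2.556 arrays, against 9.72 and 9.56 on the premalignant arrays. It rose by 0.63 with shEzh2.556 (SE 0.14, adjusted p = 0.00904), which was not called without shEzh2.556 array 1 or premalignant array 2. The protease gene Ctsl went the other way, with 7.81 and 7.77 on the shEzh2.781 arrays and 8.13 and 8.07 on the shEzh2.556 arrays, against 8.42 and 9.12 on the premalignant arrays. Ctsl fell by 0.98 with shEzh2.781 (SE 0.18, adjusted p = 0.00438) and by 0.66 with shEzh2.556 (SE 0.18, adjusted p = 0.0255). The fall with shEzh2.556 was not called after quantile normalization, nor without either shEzh2.556 array or premalignant array 2. Ctsb, a related protease, stayed between 10.65 and 10.75 on all 6 arrays. Gpnmb, a glycoprotein of lysosome-rich macrophages, had 6.43 and 5.64 on the shEzh2.556 arrays, a spread wider than its difference of 0.43 from premalignant cells. Of 19 other lysosome genes measured, 8 rose in the average of both hairpins and none fell by the limma test, while 5.6% of all genes rose. Their median was 0.21, and 2 were lower at an unadjusted p under 0.05. The 8 included Hexa (0.68, SE 0.10), Ctsh (0.87, SE 0.15), Ctss (0.52, SE 0.10) and the protease inhibitor gene Cst3 (0.58, SE 0.09). With shEzh2.781 alone 4 of the 19 rose (4.6% of all genes), and with shEzh2.556 alone 8 rose (6.8% of all genes).

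The low- to high-affinity receptors for immunoglobulin G bind antibody-coated targets. Fcgr4 showed the largest rise of the 33 members in each comparison with premalignant cells. Its mean over all arrays was 6.30, so it was not tested in the alternative run with a filter at a mean of 7. It had 6.16 and 6.59 on the shEzh2.781 arrays and 6.99 and 6.90 on the shEzh2.556 arrays, against 5.60 and 5.57 on the premalignant arrays. The groups did not overlap; Fcgr4 was 1.73-fold higher with shEzh2.781 (log2 0.79, SE 0.14, adjusted p = 0.00324) and 2.57-fold higher with shEzh2.556 (log2 1.36, SE 0.14, adjusted p = 4.48e-05). Fcgr3 had 7.06 and 7.29 on the shEzh2.781 arrays and 7.53 and 7.42 on the shEzh2.556 arrays, against 7.10 and 7.08 on the premalignant arrays, and rose with shEzh2.556 by 0.38 (SE 0.12, adjusted p = 0.0442). That call was lost when any array of the shEzh2.556 or premalignant groups was left out. Fcgr1, the high-affinity receptor, differed by 0.13 and 0.15 with shEzh2.781 and shEzh2.556 and was not called.

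Pattern-recognition receptors of myeloid cells gave 1 call among 3 genes. Clec4n, which encodes the fungal mannan receptor dectin-2, had 5.69 and 5.45 on the shEzh2.781 arrays and 5.33 and 5.47 on the shEzh2.556 arrays, against 4.66 and 5.01 on the premalignant arrays. It rose by 0.73 with shEzh2.781 (SE 0.14, adjusted p = 0.00526) and by 0.56 with shEzh2.556 (SE 0.14, adjusted p = 0.0165), and neither was called without premalignant array 1. The rise with shEzh2.556 was also lost without either shEzh2.556 array. Clec7a (dectin-1) and Cd14, the lipopolysaccharide co-receptor, were not called in any comparison. Ccr2, the chemokine receptor that brings monocytes out of the marrow, had 5.54 and 6.04 on the shEzh2.781 arrays and 5.51 and 5.35 on the shEzh2.556 arrays, against 5.38 and 6.37 on the premalignant arrays. The premalignant arrays alone spanned the whole range of Ccr2 apart from 1 lymphoma array, and no difference passed.

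Of the genes that monocytes share with neutrophils, Itgam fell with both hairpins and Lyz2 with shEzh2.556. Itgam, which encodes the CD11b chain of an integrin of monocytes, macrophages, neutrophils and NK cells, had 6.78 and 7.32 on the shEzh2.781 arrays and 7.06 and 6.91 on the shEzh2.556 arrays, against 8.17 and 8.09 on the premalignant arrays. All lymphoma arrays lay below both premalignant ones. Itgam fell by 1.09 with shEzh2.781 (SE 0.16, adjusted p = 0.000941) and by 1.14 with shEzh2.556 (SE 0.16, adjusted p = 0.000401). Lyz2, the lysozyme of myeloid cells, had 9.76 and 10.33 on the shEzh2.781 arrays and 10.11 and 7.96 on the shEzh2.556 arrays, against 10.70 and 10.85 on the premalignant arrays. Every lymphoma array was below the premalignant ones, and the shEzh2.556 arrays were far apart. Its fall with shEzh2.556 was 1.74 (SE 0.48, adjusted p = 0.0257), and it was not called after quantile normalization, nor without shEzh2.556 array 2 or either premalignant array. With shEzh2.781 the difference was -0.73 (SE 0.48, adjusted p = 0.433). The neighbouring gene Lyz1, a close paralogue on chromosome 10 whose probes may bind some Lyz2 RNA, had 7.07 and 6.96 on the shEzh2.781 arrays and 6.89 and 6.38 on the shEzh2.556 arrays, against 6.88 and 7.33 on the premalignant arrays and was not called.

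Beside these falls, some or all markers of neutrophils, eosinophils, NK cells and dendritic cells fell as well. So did some markers of megakaryocytes and platelets and of erythroid cells, while 9.61% of all genes were called lower. All 16 neutrophil markers were called lower over both hairpins, and their summed linear signal was 4387 and 7129 on the shEzh2.781 arrays and 2084 and 1356 on the shEzh2.556 arrays, against 11157 and 13001 on the premalignant arrays. The lowest of these sums was that of shEzh2.556 array 2, the array with the lowest Lyz2. Eosinophil markers gave 4 falls among 7, with sums of 457 to 508 on the lymphoma arrays against 1783 and 1804 on the premalignant arrays. Among the neutrophil and eosinophil markers Ltf fell by 2.70 (SE 0.19) and Ear6 by 3.76 (SE 0.09). Of 12 NK cell markers 6 fell and none rose by limma, none being higher at an unadjusted p under 0.05 either, at a median of -0.34 (Nkg7 fell by 1.04, SE 0.12). Of 14 dendritic cell markers 7 fell and 1 rose, at a median of -0.40 (Siglech fell by 2.74, SE 0.20, and Ccr9 fell by 2.28, SE 0.22). Summed NK cell signals were 676 and 732 on the shEzh2.781 arrays and 733 and 697 on the shEzh2.556 arrays, against 907 and 954 on the premalignant arrays. Summed dendritic cell signals were 6749 to 6913 on the lymphoma arrays, against 8318 and 10162 on the premalignant arrays. Of 6 megakaryocyte and platelet markers 3 fell and none rose (Ppbp fell by 3.23, SE 0.27). Of 9 erythroid markers 7 fell and none rose. The part of these cells in the falls of Itgam and Lyz2 was not tested.

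Set against premalignant cells on their own, shEzh2.781 lymphomas had 2 members higher and 5 lower, and shEzh2.556 lymphomas had 10 higher and 3 lower. These comparisons share the premalignant arrays. Over all genes 4.6% were called higher and 6.24% lower with shEzh2.781, and 6.8% and 11.4% with shEzh2.556, or 18.2% in either direction. With shEzh2.781, none of the 23 tissue macrophage genes rose and 4 fell (Axl, Cd68, Ctsl and Timd4), at a median of -0.04. With shEzh2.556, 7 rose (Apoe, C1qb, C1qc, Csf1r, Hmox1, Lgmn and Spic) and Ctsl fell, at a median of 0.23, against 0.07 over all genes. The 10 monocyte and myeloid genes gave 2 rises and 1 fall with shEzh2.781, and 3 rises and 2 falls with shEzh2.556. Of 9 erythroid markers, 8 fell with shEzh2.781 and 1 with shEzh2.556, and the part of erythroid cells in the members' counts was not tested. Both shEzh2.781 arrays lay above both premalignant arrays for 10 members and below them for 10, as they did for 22% and 28.6% of all genes. Both shEzh2.556 arrays lay above them for 19 members and below them for 6, as they did for 35.8% and 26.5% of all genes.

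Scaling bore on these counts. Centring each array on its median over all 35512 probe sets raised every difference of shEzh2.781 from premalignant cells by 0.12. The median difference over the 19938 genes was then 0.09, where it had been -0.03. Of the members 4 were then higher and 3 lower, where the deposited values gave 2 and 5. Over all genes the split became 1733 higher and 841 lower, where it had been 917 and 1244. After quantile normalization shEzh2.556 gave 11 members higher and 1 lower, and 1913 genes higher and 1862 lower, where the deposited values gave 1355 and 2280. Of the 13 calls with shEzh2.556, 6 were kept whichever array was left out (C1qc, Fcgr4, Hmox1, Itgam, Lgmn and Spic). The 10 rises were 5 without shEzh2.556 array 1, which held the highest value of 16 of the 33 members.

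The shEzh2.781 and shEzh2.556 lymphomas were then compared directly, which tests the difference between the hairpins. No member was higher with shEzh2.781 by the limma test (1 at an unadjusted p under 0.05, Clec7a), and 9 were lower: Hmox1, Cd68, C1qc, Slc40a1, Spic, Fcgr4, Lgmn, Maf and Axl. Over all genes 5.5% were higher and 4.53% lower. Hmox1 was 1.85-fold lower with shEzh2.781 (log2 -0.89, SE 0.11, adjusted p = 0.0007). The differences were -0.65 for Cd68 (adjusted p = 0.0242), -0.64 for C1qc (0.0134), -0.63 for Slc40a1 (0.0118) and -0.62 for Spic (0.0147). Tissue macrophage genes supplied 8 of the 9. Lower on both shEzh2.781 arrays than on both shEzh2.556 arrays were 19 of the 33 members, as were 40.1% of all genes, and 4 were higher on both, as were 25% of all genes. Of the 23 tissue macrophage genes 22 had a negative difference, Mrc1 being the exception, as had 11950 of all 19938 genes. The median of the 23 was -0.32, against -0.07 over all genes. The 10 monocyte and myeloid genes divided into 6 positive and 4 negative, at a median of 0.11. Itgam differed by 0.06 (95% interval -0.29 to 0.41) and Lyz2 by 1.01 (interval -0.03 to 2.05, adjusted p = 0.172).

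**Figure D3:**
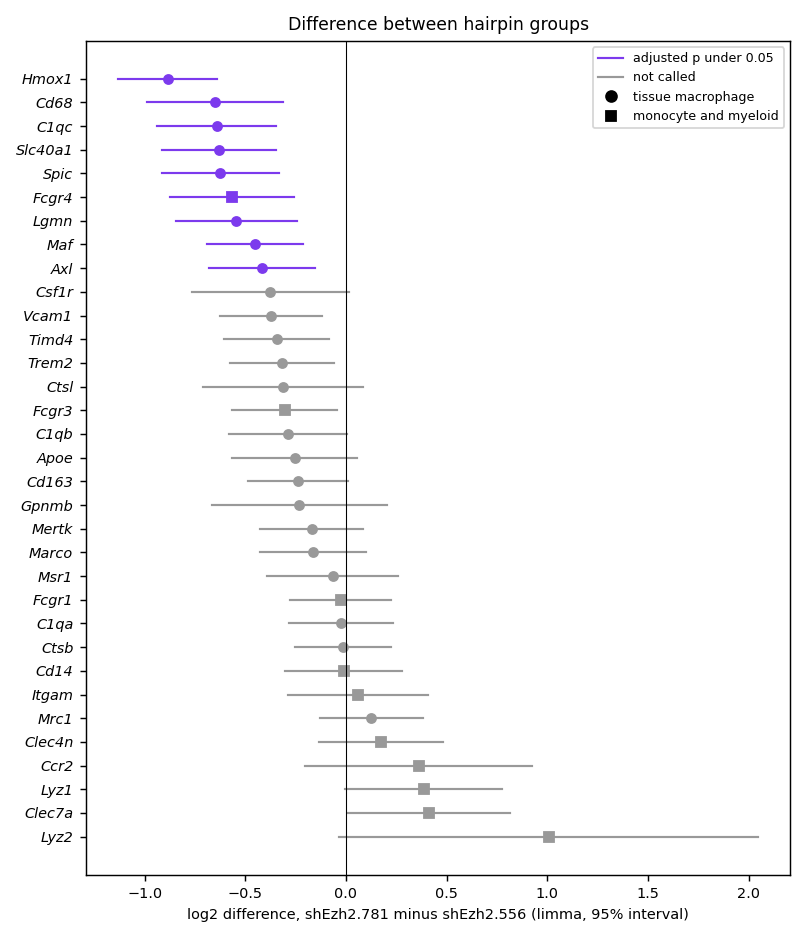
Difference in log2 signal of each member, shEzh2.781 minus shEzh2.556 (horizontal axis), with the 95% interval of the limma fit as a line. Circles are tissue macrophage genes and squares monocyte and myeloid genes; the 9 in purple had an adjusted p under 0.05, and all of them are negative.

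The scaling bore on these differences. Centring each array on its median over all probe sets raised every difference between hairpins by 0.11. After it, 19 of the 23 tissue macrophage genes were still negative at a median of -0.21, against 0.04 over all genes. Then 5 members were called lower in place of 9. Over all genes the split became 2242 higher and 453 lower, where the deposited values gave 1097 and 903. After quantile normalization 20 of the 23 were negative at a median of -0.33, against -0.05 over all genes, and 7 members were lower. Hmox1 was called in every alternative run, including the test over all 35512 probe sets, in which it was the only member left; without shEzh2.556 array 1 it was also the only member called lower, without shEzh2.781 array 1 there were 2, and without shEzh2.556 array 2 there were 3.

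Markers of other cells also differed between the hairpins, where 5.5% of all genes were called higher and 4.53% lower with shEzh2.781. All 9 erythroid markers were lower with shEzh2.781 (Ermap dropped by 1.32, SE 0.16), at a median of -1.12 and with summed signals of 824 and 1141 on its arrays, against 2566 and 1882 on the shEzh2.556 arrays. Neutrophil markers were higher with shEzh2.781 in 14 of 16 genes (Mmp8 by 2.00, SE 0.23). Of 14 T cell markers 1 was called lower (Thy1), at a median of -0.23. On both shEzh2.781 arrays 10 of the 14 were lower than on both shEzh2.556 arrays, as were 40.1% of all genes. Of 15 stromal and endothelial markers 13 had a negative difference, as had 11950 of all 19938 genes. Lower on both shEzh2.781 arrays than on both shEzh2.556 arrays were 11 of the 15, against the same 40.1%. The median of the 15 was -0.34, much like the -0.32 of the tissue macrophage genes. Among the 15 markers 2 were called lower (Cdh5 and Tie1). At an unadjusted limma p under 0.05, 8 were lower, as were 3573 of all 19938 genes. The list had sums of 2317 and 2294 on the shEzh2.781 arrays against 2520 and 2469 on the shEzh2.556 arrays. The part of these cells in the differences of Hmox1, Slc40a1, Spic and the other members was not tested.

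A list of 30 further macrophage genes, of which 27 were measured, was described in the same way. Over both hairpins 2 rose and 6 fell, at a median of 0.07, while 5.6% of all genes were called higher and 9.61% lower. Cd5l, a secreted protein of tissue macrophages, had 6.29 and 6.35 on the shEzh2.781 arrays and 6.71 and 6.78 on the shEzh2.556 arrays, against 5.61 and 5.52 on the premalignant arrays. The groups did not overlap, and Cd5l rose by 0.97 over both hairpins (SE 0.10, adjusted p = 3.3e-05). Mpeg1, a pore-forming protein of phagocytes, fell by 1.71 (SE 0.16, adjusted p = 2.8e-05), Tyrobp, a signalling adaptor of myeloid and NK cells, by 1.02 (SE 0.18) and the lectin Cd33 by 0.91 (SE 0.16). Adgre1, which encodes an adhesion receptor used to define mouse macrophages, had 6.74 and 6.95 on the shEzh2.781 arrays and 7.25 and 6.94 on the shEzh2.556 arrays, against 6.99 and 7.01 on the premalignant arrays. It was called in no comparison (difference over both hairpins -0.03, SE 0.12, adjusted p = 0.907). Between the hairpins 2 of the 27 were higher and 4 lower with shEzh2.781, at a median of -0.22 (5.5% and 4.53% over all genes). The higher ones were Acp5, an acid phosphatase of macrophages and osteoclasts (0.57, SE 0.11, adjusted p = 0.0107), and Cd33, named after its values were seen (0.68, SE 0.19, adjusted p = 0.0433). The lower ones included Stab2, a scavenger receptor of sinusoidal endothelium (-0.91, SE 0.15, adjusted p = 0.00364), Cybb, the catalytic chain of the phagocyte oxidase, which B cells also carry (-1.17, SE 0.24, adjusted p = 0.0118), and Cd5l (-0.43, SE 0.11, adjusted p = 0.0339).

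Of 26 further monocyte genes, 22 were measured, and 2 rose and 5 fell over both hairpins, at a median of -0.21. Over all genes 5.6% were called higher and 9.61% lower. Thbs1, which encodes thrombospondin 1, fell by 1.66 (SE 0.18, adjusted p = 6.79e-05), Ifitm6 by 1.77 (SE 0.28) and the chitinase-like gene Chil3 by 1.66 (SE 0.31). Some markers of megakaryocytes and platelets were lower as well, and the part of these cells in the fall of Thbs1 was not tested. Tlr2, a receptor for bacterial lipoproteins, rose by 0.61 (SE 0.10, adjusted p = 0.00115). Between the hairpins 4 of the 22 were higher with shEzh2.781, as were 5.5% of all genes. None was lower by limma (1 lower at an unadjusted p under 0.05), and the median was 0.02. The 4 higher were Chil3 (2.17, SE 0.35), Ifitm6 (1.44, SE 0.33), the granulocyte colony-stimulating factor receptor gene Csf3r (1.00, SE 0.18) and the complement C5a receptor gene C5ar1 (0.70, SE 0.14). No member was called in this direction. Neutrophil markers were higher with shEzh2.781 too, in 14 of 16 genes, and the part of neutrophils in these 4 differences was not tested. With shEzh2.556 alone Chil3 had 5.67 and 4.31 on its 2 arrays, against 7.84 and 7.63 on the premalignant arrays, while the shEzh2.781 arrays had 6.74 and 7.58. Chil3 is also made by neutrophil precursors, whose markers were lower as well, and their part in its fall was not tested.

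Partners of the member receptors were measured for 13 genes, of which 4 rose and 3 fell over both hairpins. Over all genes 5.6% were called higher and 9.61% lower. Itgb7 and Itgb1, integrin chains that pair with Itga4 to bind Vcam1, rose by 0.97 (SE 0.10, adjusted p = 3.76e-05) and 0.63 (SE 0.11, adjusted p = 0.00186). Lbp, which hands lipopolysaccharide to Cd14, fell by 0.93 (SE 0.12, adjusted p = 0.000243), and Hp, the haptoglobin bound by Cd163, fell by 0.97 (SE 0.15, adjusted p = 0.000917). Hp is also stored in neutrophil granules. Between the hairpins Hp was higher with shEzh2.781 (1.06, SE 0.17) and Csf1 lower (-0.54, SE 0.15). These were the only 2 of the 13 called, while 10% of all genes were called in either direction.

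**Figure D4:**
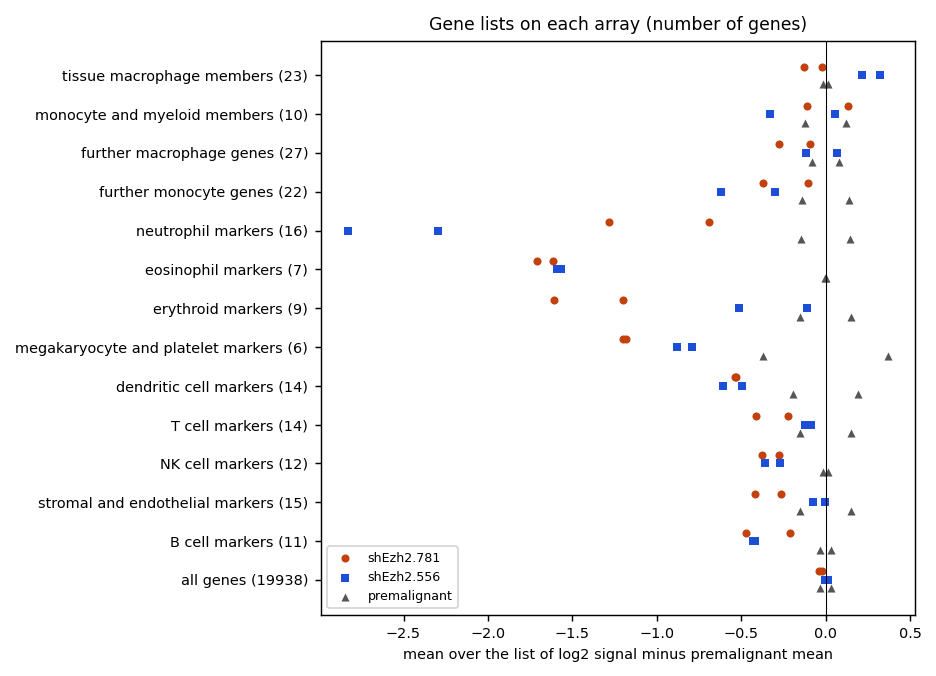
Mean over each gene list of the log2 signal minus the premalignant mean (horizontal axis), 1 point per array, with the number of genes in brackets. Circles are shEzh2.781, squares shEzh2.556 and triangles premalignant arrays; the tissue macrophage genes are the only list shown with both shEzh2.556 arrays to the right of the other 4 by this measure, and neutrophil markers reach furthest to the left.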

How the data were processed

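Total RNA was labelled with biotin and hybridised to 1-colour arrays, 6 in all, in 3 groups of 2. Values were used as deposited by the authors: 1 value per probe set, read as log2 signal from their range (2.30 to 14.22) and not from any label. The normalization and summarization methods are not given in the sources used here. No scanner files were used, so background, detection and scan batches were not analysed here, and precision is limited by the number of arrays.

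Of 35512 probe sets, the platform annotation gave 21789 1 symbol, 1621 several and 12102 none. Genes were taken from probe sets with 1 symbol, and of several probe sets for a gene (999 genes) the one with the highest mean over the 6 arrays was kept, which left 19938 genes. Groups were compared with limma 3.58.1 in R 4.3.3 (lmFit, eBayes; 3 residual and 8.51 prior degrees of freedom) in 1 fit to all arrays, with Benjamini-Hochberg adjustment over all genes and a threshold of 0.05. Contrasts were both hairpin groups, averaged, minus premalignant, each hairpin minus premalignant, and shEzh2.781 minus shEzh2.556. The fit was tested on simulated data, in 5 runs with 200 of 19938 genes changed between the hairpin groups. Of changes of 1 (log2) 97% were called, and of changes of 0.5 16.4%, with 5.76% of calls false. At that setting most differences of 0.5 thus went uncalled. In the data 2000 genes were called between the hairpins, so the simulated shares need not hold there. Alternatives rescaled the arrays by quantile normalization or by centring each on its median, both over all 35512 probe sets. Others were a filter at a mean of 7, a replicate block, the mean over a gene's probe sets, and a test over all probe sets. The rest were an intensity trend, the lymphoma arrays as 1 group, a fit to the compared groups alone, and leaving out each array.

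Members and gene lists were chosen with earlier results of these data known. Values on every array are given for members called in any comparison and for a few fixed ones. From the other lists, genes were named from the called ones with the 4 smallest p-values of a comparison, fewer than 4 for the marker lists of other cells; Cd33 in the hairpin comparison lay outside this rule. Promoter sequences came from RefSeq (GRCm38.p6). Figures were drawn with matplotlib 3.10.9, and motifs searched with pandas 2.3.3, in Python 3.11.15.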

Additional observations from a re-analysis of the deposited data

Results flagged for a closer look

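The hairpin groups differed for 9 members by the limma contrast of shEzh2.781 minus shEzh2.556, which tests directly whether their differences from premalignant cells are unequal. The log2 differences were -0.89 for Hmox1, -0.65 for Cd68, -0.64 for C1qc, -0.63 for Slc40a1 and -0.62 for Spic. They were -0.57 for Fcgr4, -0.54 for Lgmn, -0.45 for Maf and -0.42 for Axl. Each was lower on both shEzh2.781 arrays than on both shEzh2.556 arrays, as were 40.1% of all genes. Over all genes 4.53% were called lower and 5.5% higher. For Hmox1, C1qc, Spic and Lgmn the shEzh2.781 lymphomas were not called different from premalignant cells while the shEzh2.556 lymphomas were higher. For Cd68 and Axl the shEzh2.781 lymphomas were lower than premalignant cells and the shEzh2.556 lymphomas were not called. Fcgr4 was higher than in premalignant cells with either hairpin. Slc40a1 and Maf were called in neither comparison with premalignant cells.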

How the results depend on the processing

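The comparisons gave 40 calls of members. None changed direction in any alternative run, and 10 stayed past the threshold in all alternatives that tested them, 13 in all fits with an array left out. In the average of both hairpins the 8 higher members were 5 with the replicate block and 3 in the test over all probe sets. They were 2 with the lymphoma arrays as 1 group, and the 3 lower were 1 over all probe sets. With shEzh2.781 against premalignant cells the 2 higher were 4 after centring and 0 over all probe sets by limma. Under the filter at a mean of 7 (18 of 33 members tested) there were 0, since both, Fcgr4 and Clec4n, were removed and not retested. The 5 lower were 3 after centring and 1 over all probe sets. With shEzh2.556 against premalignant cells the 10 higher were 5 over all probe sets, and the 3 lower were 1 after quantile normalization and 1 over all probe sets. Between the hairpins the 9 lower were 5 after centring and 1 over all probe sets. Leaving out 1 array gave 3 to 8 higher and 2 to 4 lower over both hairpins, 1 to 3 higher and 3 to 6 lower with shEzh2.781, and 5 to 11 higher and 1 to 4 lower with shEzh2.556. Between the hairpins it gave 0 to 1 higher and 1 to 8 lower, with the fewest lower without shEzh2.556 array 1. The single array left in such a group was assumed to vary like the others. Over all genes, 1117 higher and 1916 lower over both hairpins became 409 and 682 with the lymphoma arrays as 1 group, and 1097 and 903 between the hairpins became 205 and 112 over all probe sets. The causes of these changes were not tested. Over all genes, same-numbered arrays did not deviate together (correlations of 0.06, -0.09 and -0.12 between groups). Such correlations cannot exclude that arrays with the same number share an animal or a batch. The replicate block kept 34 of the 40 calls.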
